A study of Mus musculus with 3 samples.

Results

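IL-33 or vehicle was injected into the brain ventricles of mice, and CD45-positive thalamic cells were taken 4 hours later. Most CD45-positive cells of the WT IL-33 library lay in 1 inflammatory cluster, and the cells described here lay outside it. They were the cells that the authors had placed in clusters 0, 2 and 3, taken from the WT IL-33 library and the WT vehicle library. There were 2667 such cells of the 7598 deposited, 313 from WT IL-33 (144, 102 and 67 in clusters 0, 2 and 3) and 2354 from WT vehicle (1327, 515 and 512). They made up 14.2% of the 2202 WT IL-33 cells and 86.9% of the 2709 vehicle cells, and cluster 1, the inflammatory cluster, held 1815 WT IL-33 cells and 20 vehicle cells. Both groups were mice heterozygous for Cx3cr1-creER, an inducible Cre placed at the fractalkine receptor gene, which microglia and other macrophages express, and they differed in the injected agent (IL-33 or vehicle). A cKO IL-33 library, from mice that in addition carry homozygous floxed ST2 alleles and received IL-33, is given beside them where it helps. The cells came from thalamus, were isolated in the cold on a 22% Percoll gradient, sorted for CD45, a surface marker of leukocytes and microglia, and profiled by droplet sequencing with unique molecular identifiers (UMIs).

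Each group was 1 library, and the sources used here do not give the number or age of the animals in it. No test between conditions was possible. Levels are CPM, which set the UMIs summed over all cells of a group to a common library total, ratios carry exact conditional binomial (Clopper-Pearson) 95% intervals and shares exact binomial ones, and all intervals cover counting error only. The clusters were formed by the authors on expression itself, so a WT IL-33 cell with a strong response was likely to be put in cluster 1. The cells outside it were thus selected in part by how they responded, and cluster sizes are not a result. Of 8 microglial markers 3 or more were detected in all 313 WT IL-33 cells and in 2351 of the 2354 vehicle cells, and their summed level was 18435 CPM in WT IL-33 and 19675 CPM in vehicle. T cell, NK cell, mast cell and erythrocyte markers were at 0 in WT IL-33 and summed to at most 0.523 CPM per type in vehicle. Neutrophil markers summed to 159 CPM against 113 CPM with 5 of 6, S100a8 and S100a9 included, at 0 in WT IL-33, and monocyte markers to 25.3 CPM against 49.4 CPM with Ly6c2 and Chil3 at 0. Dendritic markers, which include Ccr7, summed to 31.8 CPM against 7.78 CPM. No cell barcode was shared by the 2 libraries.

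The WT IL-33 cells were shallower, with a median of 3351 UMIs per cell against 5379.5, and summed to 1225372 UMIs against 15291703. Their median mitochondrial share was 1.97% against 2.94% and their ribosomal protein share 10.7% against 15.1%. By the deposited call 189 of the 313 cells (60.4%) were female, against 8 of 2354 vehicle cells, so sex moved with the treatment. Comparisons on male-called cells alone are given for some genes and lists only.

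IL-33 is a cytokine of the IL-1 family that is stored in cell nuclei and released by damage. It binds ST2, encoded by Il1rl1, which pairs with the chain encoded by Il1rap and signals through MyD88 and IRAK kinases to NF-kB, a transcription factor that drives chemokine, cytokine and feedback inhibitor genes. Microglia, the resident macrophages of the brain, are kept in a homeostatic state by TGF-beta and express purinergic receptors such as P2ry12.

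The summed UMIs of cells outside the inflammatory cluster still showed an inflammatory profile in WT IL-33. Cluster 1 held 1815 of the 2202 WT IL-33 cells and 20 of the 2709 vehicle cells. The part that free RNA or doublets from it had in this profile was not tested. Of 3905 genes that reached 50 CPM in 1 of the 2 libraries, 188 (4.81%) were higher in WT IL-33 by 2-fold or more and 28 (0.717%) lower by as much. The interval of each of these ratios excluded 1, which at this depth the minimum and the 2-fold rule all but fix in advance. Of the higher genes 63 were over 50 CPM in vehicle, and the rest passed the minimum only through WT IL-33. Past 10-fold there were 20 higher genes and 1 lower gene. Of the calls, 87.0% were thus higher. Scaling by trimmed mean (TMM), under which the median log2 ratio of all genes at 10 CPM or more moved from 0.14 to -0.04, gave 124 higher and 68 lower, or 64.6% higher. Between male-called cells, 124 against 2346, there were 261 higher and 80 lower genes, and 170 of the 188 higher genes stayed at least 2-fold higher.

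**Figure D1:**
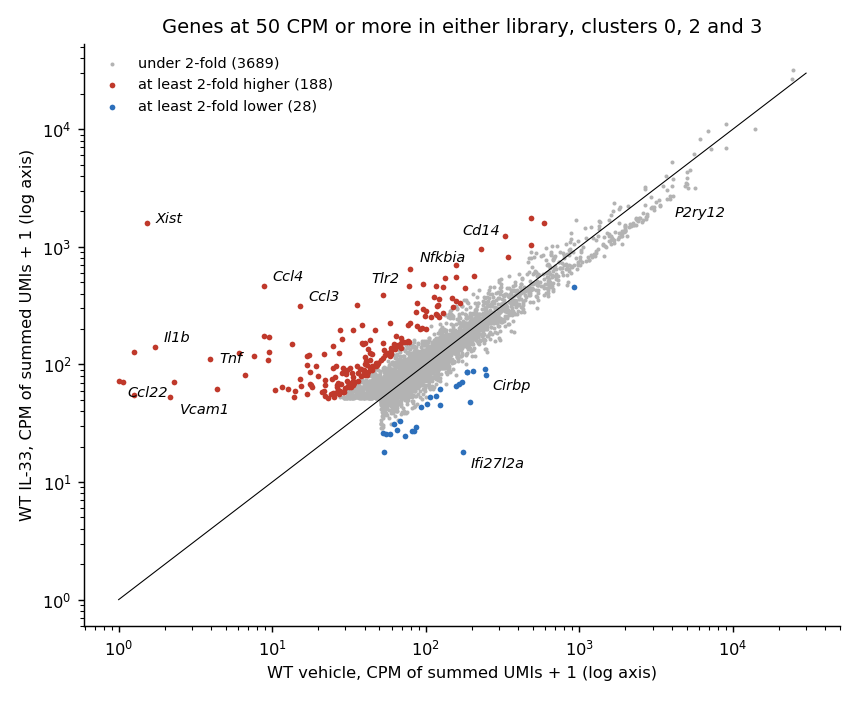
Level of each of the 3905 genes in WT vehicle (x axis) and WT IL-33 (y axis), as CPM of summed UMIs + 1 on log axes, for cells of clusters 0, 2 and 3; the line marks equal levels. The 188 genes at least 2-fold higher include genes such as Ccl22 and Il1b that lie at the left edge, near 0 in vehicle, while the 28 lower genes stay close to the cloud except Ifi27l2a.

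The receptor side of the pathway was sparse in these cells. Il1rl1 had 10 UMIs in WT IL-33 and 181 in vehicle, or 8.16 CPM against 11.8 CPM, a ratio of 0.689 (0.325 to 1.30) in which no difference was detectable at this depth. One or more Il1rl1 UMIs were seen in 3.2% of WT IL-33 and 6.8% of vehicle cells, and in 0.3% and 2.4% once each cell was thinned to 2000 UMIs. Nearly all cells carried microglial markers. Thus no cell type that should lack these genes could give the share due to free RNA alone, here and for the shares below. Sex-linked transcripts give a partial gauge only, with both Xist and Y-linked UMIs in 15 of the 313 WT IL-33 cells. Il1rap was at 11.4 CPM against 4.97 CPM, with 14 and 76 UMIs (2.30-fold, 1.20 to 4.10), and at 17.9 CPM in cluster 1 of WT IL-33. Il33 itself had 0 and 3 UMIs. Of 10 measured genes of the receptor pathway 4 were at least 1.5-fold higher and 0 lower. The kinase gene Irak2 was at 90.6 CPM against 36.95 CPM (2.45-fold, 1.98 to 3.01), Myd88 at 29.4 CPM against 27.3 CPM, Irak1 at 88.95 CPM against 98.0 CPM and the adaptor gene Tab2 at 227 CPM against 279 CPM. The median log2 ratio of these 10 genes was 0.19, beside 0.14 over all 8649 genes at 10 CPM or more, and it was -0.01 in clusters 0 and 2 alone. Over those 8649 genes, 18.6% were at least 1.5-fold higher and 6.54% at least 1.5-fold lower, which is the background for the counts of list members given here. There and in the lists, a gene under 10 CPM in 1 library passed the minimum only through the other, which in part set these counts.

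NF-kB target genes stood well above that background. Of 21 measured members 20 were at least 1.5-fold higher and 0 lower, with a median log2 ratio of 1.95 that was 1.94 in male-called cells and 1.76 under TMM scaling. Nfkbia, the inhibitor that holds NF-kB in the cytoplasm and is itself induced by it, was at 540.2 CPM in WT IL-33 and 132 CPM in vehicle (4.10-fold, 3.75 to 4.48), and at 812 CPM in cluster 1. Its level outside the inflammatory cluster was thus nearer to cluster 1 than to vehicle. Tnfaip2, a gene induced by tumour necrosis factor, was at 124 CPM against 5.10 CPM (24.3-fold, 18.4 to 32.4). Gadd45b, a stress-induced signalling gene, had 66 UMIs against 4, or 53.9 CPM against 0.262 CPM. Bcl2a1d, a survival gene with near-identical paralogs that can share its reads and therefore uncertain, was at 60.4 CPM against 3.40 CPM. Rel, a subunit of NF-kB, was the measured member under 1.5-fold, at 156 CPM against 119 CPM. Nfkbiz, which encodes an atypical nuclear inhibitor, was at 149 CPM against 12.5 CPM (11.9-fold, 9.65 to 14.6), and Tnfaip3, a deubiquitinase that ends NF-kB signalling, at 122 CPM against 20.7 CPM. Among the feedback genes of the SOCS and STAT3 list 4 of 8 were higher and 0 lower, led by Socs3, which restrains JAK-STAT signalling, at 116 CPM against 15.9 CPM (7.29-fold, 5.89 to 9.01).

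NF-kB often binds in the bases before the start site of a gene. The kappaB consensus used was GGGRNNYYCC (R is A or G, Y is C or T, N is any base). Of the higher genes with a match to it in those bases 4 are shown, chosen after their values were seen. Each line gives 120 bases of the RefSeq promoter window (GRCm38.p6), 5′ to 3′ on the strand of the gene, with matches to the kappaB consensus on either strand in capitals.
Nfkbia (chr12:55492648-55492767, minus strand): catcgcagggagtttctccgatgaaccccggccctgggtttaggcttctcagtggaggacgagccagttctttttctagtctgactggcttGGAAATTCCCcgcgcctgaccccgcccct
Tlr2 (chr3:83841682-83841801, minus strand): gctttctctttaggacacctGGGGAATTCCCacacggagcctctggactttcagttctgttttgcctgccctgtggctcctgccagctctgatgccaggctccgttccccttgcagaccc
Tnfaip2 (chr12:111442541-111442660, plus strand): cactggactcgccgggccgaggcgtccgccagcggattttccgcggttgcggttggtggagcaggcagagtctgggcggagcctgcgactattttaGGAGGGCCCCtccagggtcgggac
Ier3 (chr17:35821593-35821712, plus strand): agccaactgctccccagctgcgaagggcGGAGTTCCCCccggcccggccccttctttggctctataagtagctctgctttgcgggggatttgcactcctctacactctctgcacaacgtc
In Nfkbia the match lies 29 to 20 bases before the start, in Tnfaip2 24 to 15, in Ier3 92 to 83, and in Tlr2 the 3 overlapping matches shown begin 173 bases before it, with a further match in both directions 8 bases before it that lies outside the bases shown. Over 300-base windows, 29 of the 149 higher genes with a RefSeq promoter (19.5%) held at least 1 match, against 407 of 3137 genes compared (12.97%) and 2581 of 27025 genes in the promoter table (9.55%). Of the 25 genes of the NF-kB list 20 had a promoter, and 11 of them (55%) held a match. A match is a description of the letters and no evidence of binding.

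Chemokine genes had the highest median of the lists at a minimum of 10 CPM. Of 11 measured members 10 were at least 1.5-fold higher and 0 lower, with a median log2 ratio of 3.68, which was 1.91 over members of any level. Ccl2, Ccl4, Ccl5, Ccl7, Ccl22 and Cxcl10 were under 10 CPM in vehicle. They passed the minimum only through WT IL-33, where they are high, so the minimum in part set this count. The same holds for Tnfaip2, Gadd45b, Bcl2a1d, Nfkbid and Bcl3 in the NF-kB list. It also holds for Pim3 and Bcl6 in the SOCS and STAT3 list and for Il1rap in the receptor pathway. Ccl4, which attracts monocytes and T cells, was at 461 CPM in WT IL-33 and 7.78 CPM in vehicle (59.3-fold, 48.5 to 72.8). Ccl3, a closely related chemokine, was at 312 CPM against 14.1 CPM (22.1-fold, 18.6 to 26.2), and Ccl2, the main attractant of CCR2-positive monocytes, at 169 CPM against 8.50 CPM (19.9-fold, 15.9 to 24.9). Ccl22, a ligand of the T cell receptor CCR4, was counted 88 times against 0. The ratio was 366 with vehicle set to a floor of 3 counts over the group (lower limit of the exact interval 292-fold). All of these remained far below cluster 1, where Ccl4 was at 5674 CPM, Ccl3 at 3672 CPM, Ccl2 at 737 CPM and Ccl22 at 641 CPM. Ccl6 was the member under 1.5-fold, at 93.0 CPM against 69.7 CPM.

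Cytokine genes were split. Il1b, encoding interleukin 1 beta, had 170 UMIs against 11, or 139 CPM against 0.719 CPM (193-fold, 105 to 394). Il12b, a subunit of IL-12 and IL-23, had 86 UMIs against 1, a ratio of 1073 with an interval from 188 to 42876. Tnf was at 110.2 CPM against 2.94 CPM (37.4-fold, 26.5 to 53.7). Of 12 measured cytokines and growth factors 8 were at least 1.5-fold higher, and Igf1, a trophic factor of microglia, was lower with 9 UMIs against 263 (7.35 CPM against 17.2 CPM). Il1b, Il12b, Tnf and Il6 passed the minimum of 10 CPM only through WT IL-33, and Igf1 only through vehicle, so the minimum in part set these counts. Il6, counted as higher, had a ratio of 1.57 (0.833 to 2.75). Tgfb1, which maintains microglial identity, was at 315 CPM against 319 CPM.

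Several receptors of innate immunity were also higher. Tlr2, which recognises bacterial lipoproteins, was at 386 CPM against 51.4 CPM (7.51-fold, 6.69 to 8.43), and its partner Tlr1 at 124 CPM against 26.4 CPM (4.71-fold, 3.88 to 5.69). Cd14, a co-receptor for lipopolysaccharide, was at 949 CPM against 227 CPM (4.18-fold, 3.91 to 4.47). Marco, a scavenger receptor, was counted 51 times against 0, a ratio of 212 with vehicle at the same floor of 3 counts (lower limit of the exact interval 166-fold). Of 15 measured genes of pattern recognition 9 were higher and 0 lower, whereas 6 differed by less than 1.5-fold, such as Tlr3 at 60.4 CPM against 69.3 CPM. Of the higher ones Marco, Tlr9 and Ticam1 passed the minimum only through WT IL-33. The anaphylatoxin receptors C5ar1 (143 CPM against 23.9 CPM, 5.97-fold, 4.95 to 7.16) and C3ar1 (702 CPM against 156 CPM, 4.51-fold, 4.16 to 4.88) were the 2 higher genes among 20 of complement and phagocytosis. In the same list Gas6, a ligand that bridges dying cells to phagocytic receptors, was at 87.3 CPM against 203 CPM, lower by 2.32-fold (1.92 to 2.84). Hcar2, the receptor for niacin and hydroxybutyrate, was at 69.4 CPM against 1.31 CPM (53.0-fold, 32.3 to 91.2), and Vcam1, an adhesion molecule, at 51.4 CPM against 1.18 CPM (43.7-fold, 25.5 to 78.4). In cluster 1 Vcam1 was at 139 CPM.

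**Figure D2:**
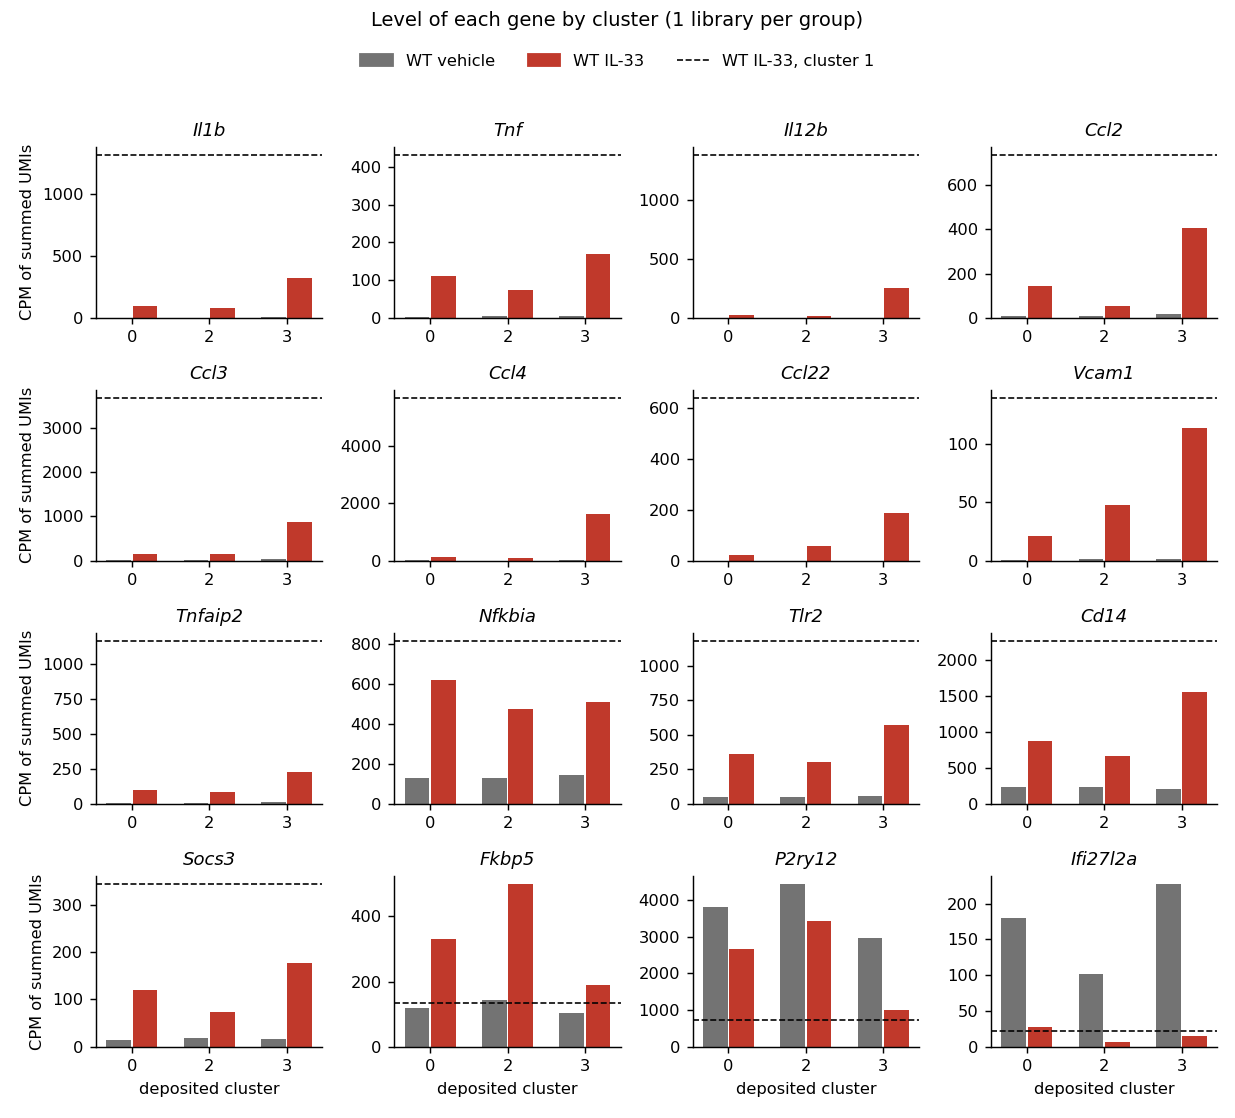
CPM of summed UMIs of 16 genes in deposited clusters 0, 2 and 3 of WT vehicle (grey bars) and WT IL-33 (red bars), 1 library per group, with the WT IL-33 level of cluster 1 as a dashed line. The inflammatory genes are higher in each cluster of WT IL-33 and highest in cluster 3 except Nfkbia, Fkbp5 lies above the dashed line in all 3 clusters, and P2ry12 comes closest to its cluster 1 level in cluster 3.

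Homeostatic microglial genes lay close to vehicle. Of 24 measured members 0 were at least 1.5-fold lower or higher, with a median log2 ratio of -0.10, against -1.12 for cluster 1 over the same vehicle cells. The median was -0.29 under TMM scaling and 0.02 in cells with no UMI of the 12 cluster 1 genes described below. P2ry12 was at 2566 CPM in WT IL-33 and 3749.6 CPM in vehicle, lower by 1.46-fold (1.41 to 1.52), and at 725 CPM in cluster 1. Bin1, a membrane-shaping gene, was 1.49-fold lower (404 CPM against 603 CPM) and the leukotriene synthase gene Ltc4s 1.43-fold lower (867 CPM against 1243 CPM). On the other side Tmem119 was at 1658 CPM against 1349 CPM, Cx3cr1 at 3197 CPM against 2677 CPM and Tgfbr1, a receptor chain for TGF-beta, at 1434 CPM against 1090.1 CPM. Pmepa1, a TGF-beta target that limits the pathway, was at 472 CPM against 825.5 CPM, lower by 1.75-fold (1.61 to 1.91), while Skil, a repressor induced by the pathway, was 1.52-fold higher. Among 16 genes of disease-associated microglia 3 were higher and 4 lower, with Lpl, lipoprotein lipase, at 95.5 CPM against 18.2 CPM and Apoe, apolipoprotein E, at 3175 CPM against 5708 CPM. Of the higher ones Cst7 and Spp1 passed the minimum only through WT IL-33, and of the lower ones Igf1 and Fabp5 only through vehicle. The medians of the TGF-beta and disease-associated lists, 0.16 and 0.12, turned to -0.03 and -0.11 under TMM scaling, so neither median kept its sign.

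Interferon and antigen presentation genes did not follow the inflammatory genes. Of 12 measured type I interferon genes 6 were at least 1.5-fold lower and 1 higher, with a median log2 ratio of -0.57. Ifi27l2a, an interferon-inducible gene, was the lowest of all genes compared at 17.1 CPM against 174 CPM, lower by 10.1-fold (6.62 to 16.4), and Bst2, which tethers virus particles, was at 122 CPM against 183 CPM. Isg15, a ubiquitin-like interferon gene, was the higher member, with 23 UMIs against 162 (1.77-fold, 1.09 to 2.75). Of 10 genes of MHC class I presentation 2 were higher and 0 lower by 1.5-fold, H2-K1 at 907 CPM against 487 CPM and H2-Q7 at 68.6 CPM against 33.2 CPM, and both are uncertain because members of this family share reads. B2m, the light chain of class I molecules, was at 1923 CPM against 2606 CPM. Of 5 class II presentation genes 2 were higher and 1 lower. The invariant chain gene Cd74 was at 168 CPM against 68.5 CPM (2.46-fold, 2.10 to 2.85), but 1.74-fold higher in clusters 0 and 2 and at a ratio of 1.04 (0.767 to 1.39) in cells with no UMI of the 12 cluster 1 genes described below. Cd86, a co-stimulatory ligand, was at 334 CPM against 188 CPM, and the peptide exchange gene H2-DMb1 at 55.5 CPM against 88.1 CPM.

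Other functional groups differed in the same cells. Of 19 measured genes of ribosome biogenesis 11 were at least 1.5-fold higher and 0 lower (median log2 ratio 0.84), such as the nucleolar genes Nop58 (99.6 CPM against 39.1 CPM) and Nop56 (148 CPM against 60.8 CPM). Of 14 immediate early genes 12 were higher (median 1.05), among them Ier3 at 74.3 CPM against 23.7 CPM, and Klf2 was the lower member with 10 UMIs against 397 (8.16 CPM against 25.96 CPM). Of 9 heat shock genes 6 were higher (median 0.66), with the chaperone gene Hspa8 at 804 CPM against 486 CPM. Glycolysis had 5 of 16 higher and 1 lower, with Hk2, hexokinase 2, at 334 CPM against 209 CPM. Of 14 cholesterol genes 6 were higher and 2 lower. In that list Ch25h, cholesterol 25-hydroxylase, had 44 UMIs against 2, and Scd2, a desaturase, was at 64.5 CPM against 156 CPM. Of 13 mitochondrially encoded genes 4 were at least 1.5-fold lower (median -0.53, and -0.72 under TMM scaling), among them mt-Co1 at 3161 CPM against 5097 CPM, beside the lower mitochondrial share given above, whose part in this was not tested. Of 12 genes of DNA replication 6 were lower and 1 higher (median -0.56, but 0.01 in cells with the deposited phase call G1), with Slbp, the histone messenger binding gene, as the higher member at 86.5 CPM against 44.9 CPM. The list of mitosis genes had 3 measured members, of which 1 was lower. Among higher members, Bop1 and Polr1b (ribosome biogenesis) and Atf3, Dusp1 and Dusp2 (immediate early) passed the minimum only through WT IL-33. The same holds for Hsph1 (heat shock) and for Idi1 and Ch25h (cholesterol). Among lower members, Klf2, Mcm2, Mcm4, Mcm5, Mcm6 and Cdk1 passed it only through vehicle.

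**Figure D3:**
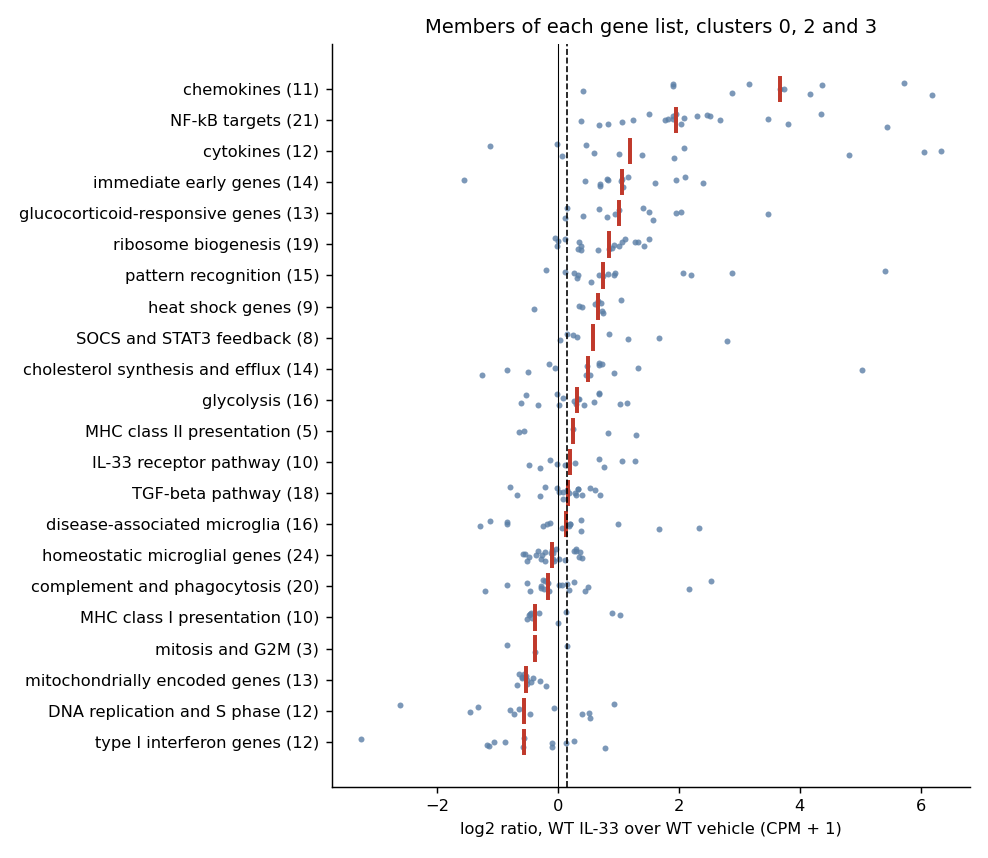
Log2 ratio of WT IL-33 over WT vehicle (CPM + 1) of each measured member (points) of 22 gene lists in clusters 0, 2 and 3, with the list's median as a red bar, the number of measured members in brackets, and the median of all 8649 genes (0.14) as a dashed line. Chemokines (median 3.68) and NF-kB targets (1.95) lie farthest to the right, homeostatic genes (-0.10) straddle 0, and type I interferon genes (-0.57) lie at the left.

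The remaining genes with the lowest ratios were varied. Hist1h1e, a linker histone gene of the replication-dependent class, was at 47.3 CPM against 193 CPM, lower by 4.08-fold (3.15 to 5.39). Cirbp, a cold-inducible RNA-binding protein gene, was at 79.98 CPM against 244 CPM, lower by 3.05-fold (2.50 to 3.77), and Cbfa2t3, a transcriptional co-repressor, at 26.1 CPM against 79.98 CPM. The G protein regulator Rgs7bp (26.1 CPM against 83.2 CPM) and the orphan receptor gene Gpr160 (23.7 CPM against 72.1 CPM) were over 3-fold lower. Rtn4rl1, a Nogo receptor homologue, and Npnt, a matrix gene, were at 69.4 CPM against 172 CPM and 66.9 CPM against 163 CPM. The noncoding Gm20033, AU020206 and Gm26917 were 2.68-fold to 3.05-fold lower. For the 28 lower genes the direction was the same in all 3 clusters, which their call on the sum of those clusters in part fixed in advance. Of them 21 lay between vehicle and cluster 1 and 7 at or beyond the cluster 1 level.

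Some genes were as high or higher outside the inflammatory cluster than in it. Of the 188 higher genes 160 lay below their level in cluster 1 of the same library and 28 at or above it. Genes known to respond to glucocorticoids, the stress hormones of the adrenal cortex, were among those 28. Fkbp5, a chaperone of the glucocorticoid receptor, was at 359.9 CPM in WT IL-33 outside cluster 1, 121 CPM in vehicle and 135 CPM in cluster 1. Ddit4, an inhibitor of mTOR, was at 282 CPM, 98.7 CPM and 87.4 CPM in the same order. Tsc22d3, which encodes the glucocorticoid-induced leucine zipper, was at 117 CPM, 57.4 CPM and 48.9 CPM, and Klf4, a zinc-finger transcription factor gene, at 66.9 CPM, 16.7 CPM and 33.6 CPM. Cluster 1 was thus near vehicle for Fkbp5, Ddit4 and Tsc22d3. Sult1a1, a sulfotransferase gene (149 CPM, 38.2 CPM and 57.3 CPM), Lifr, the receptor for leukaemia inhibitory factor (155 CPM, 77.3 CPM and 37.4 CPM), and Phlpp2, a phosphatase that acts on Akt (57.9 CPM, 26.6 CPM and 14.4 CPM), were also higher outside cluster 1 than in vehicle or in cluster 1. The list of glucocorticoid-responsive genes, which shares Nfkbia, Klf4 and Dusp1 with lists above, had 10 of 13 higher and 0 lower (median log2 ratio 1.01, against 0.16 for cluster 1 over vehicle). In this list Zbtb16 and Dusp1 passed the minimum of 10 CPM only through WT IL-33. Not all its members were highest outside cluster 1. Cebpd was at 311 CPM there, 118 CPM in vehicle and 655 CPM in cluster 1, and Nfkbia, Cdkn1a and Dusp1 were also higher in cluster 1. In clusters 0, 2 and 3 apart the median of the list was 1.12, 1.33 and 0.81. For Tsc22d3 and Lifr the ratio held in clusters 0 and 2 (2.19-fold and 2.54-fold, and 2.04-fold and 2.24-fold), while in cluster 3 it was 0.958 (0.5004 to 1.68) and 0.715 (0.385 to 1.22). Phlpp2 and Sult1a1 were also nearer to vehicle in cluster 3, with ratios of 0.691 (0.219 to 1.67) and 1.63 (0.861 to 2.84).

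The cKO IL-33 library received the same injection of IL-33. Its cells of clusters 0, 2 and 3 (2444 cells, 98.5% female by the deposited call) were set against the same vehicle cells, so the 2 comparisons share their control. Of 3566 genes past the same minimum 13 (0.365%) were at least 2-fold higher there and 3 (0.0841%) lower. The median log2 ratio was 0.10 for NF-kB targets, 0.15 for chemokines and 0.12 for homeostatic genes, and 0.49 for glucocorticoid-responsive genes. For type I interferon genes it was -0.24, with Ifi27l2a at 89.3 CPM in cKO IL-33 against 174 CPM in vehicle. Fkbp5 was at 354 CPM in cKO IL-33, Ddit4 at 235 CPM, Lifr at 160.1 CPM, Sult1a1 at 121 CPM, Tsc22d3 at 104 CPM and Klf4 at 51.5 CPM. Vehicle cells were nearly all male-called, so sex cannot be told apart from injection and genotype in this comparison. In male-called WT IL-33 cells Fkbp5 was at 251 CPM, Ddit4 at 190 CPM and Sult1a1 at 111 CPM, below their levels over all WT IL-33 cells. Lifr (156 CPM), Tsc22d3 (115 CPM) and Klf4 (70.1 CPM) were close to their levels over all those cells. Nfkbia was at 165 CPM, Tlr2 at 46.1 CPM, Ccl4 at 17.3 CPM and Tnf at 2.67 CPM. Il1rl1 was at 13.4 CPM, which checks nothing about the genotype because which exons the floxed alleles lose is not stated, and 3′ tags may lie beyond those.

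**Figure D4:**
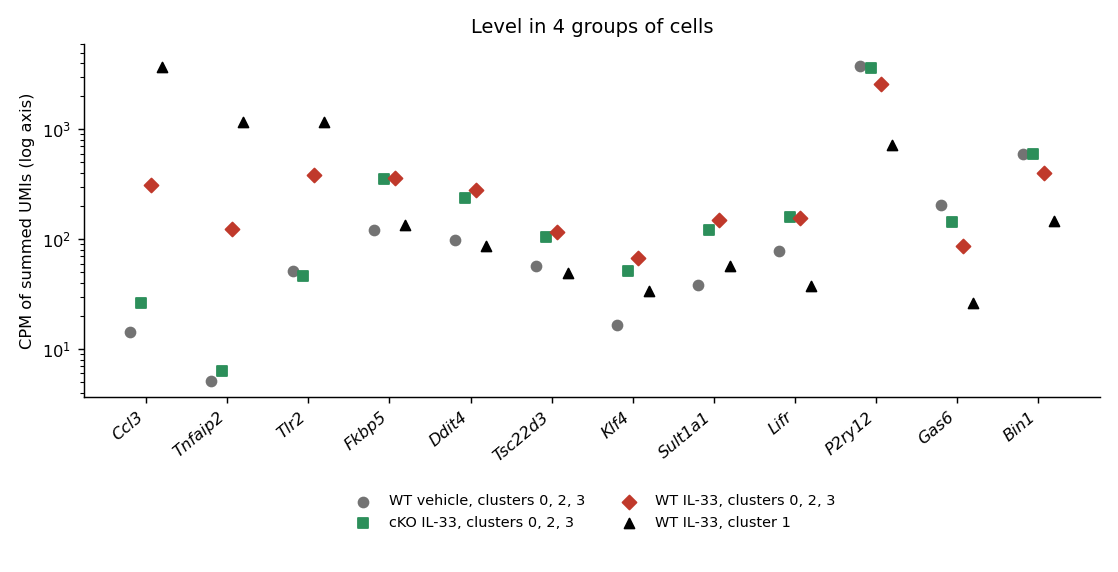
CPM of summed UMIs (log axis) of 12 genes in cells of clusters 0, 2 and 3 of WT vehicle (circles), cKO IL-33 (squares) and WT IL-33 (diamonds) and in cluster 1 of WT IL-33 (triangles), 1 library each. For Ccl3, Tnfaip2 and Tlr2 the diamonds lie between the circles and the triangles, for Fkbp5 to Lifr the squares and diamonds lie above the circles and the triangles, and for P2ry12, Gas6 and Bin1 the diamonds lie below the circles and above the triangles.

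The comparison was repeated within each of the 3 clusters. In cluster 0, 199 of 3892 genes (5.11%) were higher in WT IL-33 by 2-fold or more and 46 (1.18%) lower. In cluster 2 there were 175 of 4166 (4.2%) and 47 (1.13%). In cluster 3, with 67 WT IL-33 cells and 272767 UMIs, there were 528 of 4085 (12.9%) and 257 (6.29%). Of the 188 genes higher in the summed clusters 183 were higher in all 3 clusters and 97 at least 2-fold higher in each (log2 ratio with a pseudocount of 1 CPM). Their median log2 ratio was 1.43, 1.26 and 1.77 in clusters 0, 2 and 3. The 188 were called on the sum of these same clusters, so part of this agreement was fixed in advance. NF-kB targets had medians of 2.17, 1.85 and 2.11, so that list was about as high in each cluster. The ratio of Nfkbia was 4.85 (4.27 to 5.51) in cluster 0, 3.64 (3.07 to 4.30) in cluster 2 and 3.50 (2.88 to 4.23) in cluster 3, and Tlr2 was 7.26-fold, 6.30-fold and 9.70-fold higher. Ccl4 differed more, at 138 CPM, 108 CPM and 1639 CPM in WT IL-33, with ratios of 19.1 (13.4 to 27.4), 40.5 (19.6 to 93.9) and 117 (87.4 to 160.4).

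Cluster 3 of WT IL-33 lay nearest to the inflammatory cluster in several genes. P2ry12 was at 1001 CPM there against 2970 CPM in vehicle, and at 2661 CPM against 3808 CPM in cluster 0 and 3431 CPM against 4430.5 CPM in cluster 2. The median of homeostatic genes was -0.58 in cluster 3, -0.10 in cluster 0 and -0.04 in cluster 2, and that of heat shock genes 1.15, 0.51 and 0.23 in the same order. Il12b had 69 of its 86 UMIs in cluster 3, C3ar1 was 7.58-fold higher there (6.70 to 8.58) against 3.75-fold and 2.75-fold in clusters 0 and 2, and Cd14 7.44-fold against 3.79-fold and 2.76-fold. Cd63, a lysosomal membrane gene, was 2.02-fold higher in cluster 3 (1.78 to 2.29), with ratios of 0.884 (0.725 to 1.07) and 0.911 (0.720 to 1.14) in clusters 0 and 2. The lowest genes of cluster 3 included Slc1a2 and Sparcl1, transcripts of astrocytes, with 0 UMIs in WT IL-33 against 206 and 186 in vehicle, and 6 of 7 astrocyte markers were at 0 in its WT IL-33 cells. Over the 3 clusters, Slc1a2 and Sparcl1 UMIs came from only 18 and 20 of the 2354 vehicle cells. Their absence from 67 WT IL-33 cells thus says little. Markers of border-associated macrophages summed to 213 CPM in WT IL-33 and 236 CPM in vehicle in cluster 3, with Lyve1, Cbr2 and Clec12a at 0 in WT IL-33. Mtss1, an actin regulator gene, had 1 UMI against 308 there. In clusters 0 and 2 the genes Apoe and Lyz2, the lysozyme gene of macrophages, were lower, Apoe at 1427 CPM against 3338 CPM and 1067 CPM against 2868 CPM, and Lyz2 at 27.1 CPM against 78.0 CPM and 16.02 CPM against 60.3 CPM. Myo18a, an unconventional myosin gene, was lowest in cluster 0 (9.70 CPM against 57.9 CPM, 5 and 482 UMIs).

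Per cell, some genes were spread widely and others came from few cells. After thinning to 2000 UMIs, which left out no cell, a Cd14 UMI was found in 73.2% of WT IL-33 cells (67.9 to 78.0%), 36.1% of vehicle cells and 95.2% of cluster 1 cells. For Nfkbia these shares were 58.1%, 21.6% and 71.6%, and for Tlr2 47.6%, 8.75% and 84.6%. Without thinning, Cd14 was found in 88.2% of WT IL-33 and 66.7% of vehicle cells, Nfkbia in 75.1% and 47.0%, and Tlr2 in 62.6% and 25.0%. The 5 cells with most UMIs of the gene gave 10.2% of Cd14 UMIs, 7.9% of Nfkbia UMIs and 9.9% of Tlr2 UMIs. For Il12b the 5 highest cells gave 82.6% of the UMIs, with 31 in 1 cell, and for Ccl4 52.7%, with 87 in 1 cell. A Ccl4 UMI was found in 18.8% of thinned WT IL-33 cells (14.7 to 23.6%), 1.27% of vehicle cells and 79.7% of cluster 1 cells. Without thinning Ccl4 was found in 27.5% of WT IL-33 and 2.8% of vehicle cells.

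To see how far the cluster 1 profile reached outside it, 12 genes at 1 CPM or less in vehicle and at 100 CPM or more in cluster 1 were followed (Saa3, Ccr7, Il12b, Cxcl10, Cd69, Ch25h, Il1b, Ccl22, Marco, Zfp811, Gadd45b and Aoah), a set chosen from these data. Summed, they were at 9.01% of their cluster 1 level (8.30 to 9.76%) in WT IL-33 cells outside it, and at 4.98%, 4.49% and 23.9% in clusters 0, 2 and 3. Gene by gene the level ranged from 0.384% for Saa3, an acute-phase gene with 1 UMI (interval up to 2.14%), to 30.1% for Aoah, an enzyme that detoxifies lipopolysaccharide (21.5 to 41.0%), with a median of 10.1%. In thinned cells 67.7% of WT IL-33 cells (62.2 to 72.9%) had no UMI of the 12 genes, against 99.3% in vehicle, 99.1% in cKO IL-33 and 6.45% in cluster 1. The choice of genes itself made the vehicle share high and the cluster 1 share low. Within WT IL-33 the share with no UMI was 72.9%, 81.4% and 35.8% in clusters 0, 2 and 3. At least 10 UMIs of the set were found in 3 WT IL-33 cells (0.958%), all in cluster 3, and in 38.7% of cluster 1 cells.

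**Figure D5:**
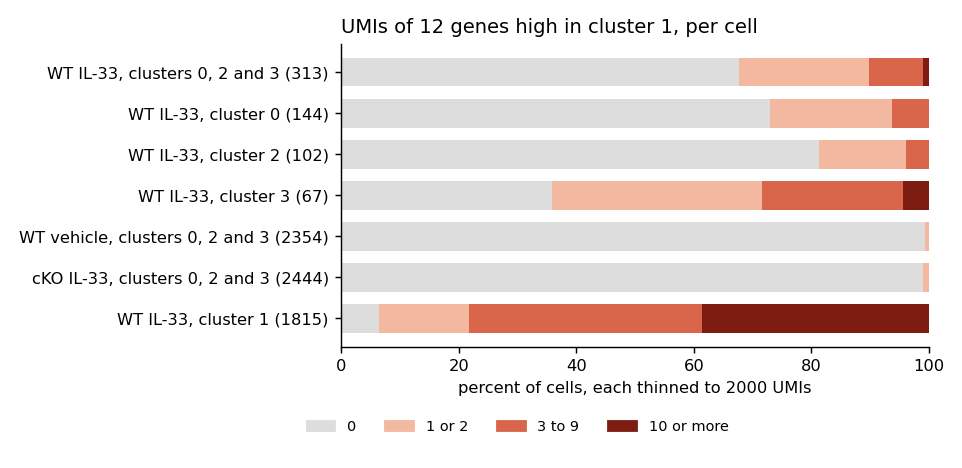
Percent of cells with 0, 1 or 2, 3 to 9, or 10 or more UMIs of 12 genes that are high in cluster 1 and near 0 in vehicle, each cell thinned to 2000 UMIs, with the number of cells in brackets. Cells without any such UMI make up 67.7% in WT IL-33 outside cluster 1, 99.3% in vehicle and 6.45% in cluster 1, and cluster 3 (35.8%) stands apart from clusters 0 (72.9%) and 2 (81.4%). The vehicle and cluster 1 shares were set in part by how the genes were chosen.

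Cells with no UMI of the 12 genes, 189 of WT IL-33 and 2309 of vehicle, were then compared alone, an alternative chosen after seeing the data. There were 131 higher and 21 lower genes past 2-fold, and 125 of the 188 higher genes stayed at least 2-fold higher. NF-kB targets kept a median log2 ratio of 1.80, with Nfkbia 4.02-fold, Tlr2 5.26-fold and Tnf 22.3-fold higher, and glucocorticoid-responsive genes a median of 1.14. The chemokine median was 1.92 there, against 3.68 over all cells, with Ccl4 6.43-fold and Ccl3 3.92-fold higher. The choice of cells itself sets Il1b, Il12b, Ccl22 and Gadd45b, which are among the 188 genes, and the chemokine gene Cxcl10 to 0, so part of the lower counts and medians was fixed in advance. Tnfaip2 was 6.48-fold, Ccl2 11.5-fold, Hcar2 19.5-fold, Socs3 4.49-fold, C3ar1 2.42-fold, Tlr1 2.26-fold and Lpl 2.01-fold higher. The ratio was 1.13 (1.02 to 1.26) for H2-K1, 0.922 (0.566 to 1.43) for H2-Q7 and 1.16 (0.309 to 3.101) for Il1rap.

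Xist and Tsix had the highest log2 ratios of the 3905 genes. Xist, the RNA that silences an X chromosome in female cells, was at 1579 CPM in WT IL-33 and 0.523 CPM in vehicle. Tsix, its antisense partner, was at 127 CPM against 0.262 CPM, and its reads cannot be told apart from those of Xist because the sources used here do not state whether counting used strand. Jpx, a neighbouring noncoding gene, was at 62.8 CPM against 31.4 CPM. The Y-linked Ddx3y, Eif2s3y, Kdm5d and Uty were 2.25-fold, 2.99-fold, 2.03-fold and 3.76-fold lower. In male-called cells Il1b was 228-fold, Ccl4 63.0-fold, Tnf 39.7-fold, Tlr2 7.25-fold and Nfkbia 4.14-fold higher, close to the ratios over all cells. Tsc22d3 was 2.01-fold higher, against 2.03-fold over all cells. Fkbp5 and Ddit4 were 2.07-fold (1.70 to 2.51) and 1.92-fold (1.52 to 2.40) higher. Over all cells their ratios were larger, at 2.97 (2.68 to 3.30) and 2.85 (2.53 to 3.21). Some other ratios also differed from those over all cells. In male-called cells they were 1.36 (0.821 to 2.12) for H2-Q7, 4.07 (1.79 to 8.14) for Il1rap, 0.578 (0.489 to 0.677) for Bin1 and 0.238 (0.141 to 0.376) for Rtn4rl1. Cells with both Xist and Y-linked UMIs numbered 15 of 313 in WT IL-33 outside cluster 1, 284 of 1815 in cluster 1 and 7 of 2354 in vehicle. Without them 180 genes were higher and 33 lower.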

How the data were processed

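CD45-positive cells of mouse thalamus were profiled by 10x Chromium version 3.1 chemistry, per the labels' protocols. Raw UMI counts (20586 genes) come from 1 deposited table. Another one deposited by the authors lists each cell's library, cluster, sex and phase calls and its percent of mitochondrial and ribosomal UMIs, per the file headers. Cell Ranger 5.0, Seurat 4.0.1 and GRCm38 are named in the submitters' processing notes, with no roles. The sources used here do not state whether doublets were removed, and no caller was run. Cells were filtered by the authors only, and each group is 1 library with no replicate.

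UMIs of all cells of clusters 0, 2 and 3 were summed per gene and library and scaled to CPM (Python 3.11.15, NumPy 2.4.6, SciPy 1.17.1, pandas 2.3.3). Log2 ratios used a pseudocount of 1 CPM. List members counted at 10 CPM or more in either library. edgeR 4.0.16 gave the TMM factors only. Functions were tested on simulated counts. Promoter sequences are those of RefSeq.

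The cells, gene lists and tests were chosen with earlier results of these data known. Named genes are the 12 highest and 12 lowest log2 ratios at least 2-fold apart, up to 3 of each list, the 5 highest and lowest of each cluster, and fixed pathway, sex-linked and inflammatory genes. The 12 genes high in cluster 1, genes at or above the cluster 1 level, and Nfkbiz, Tnfaip3, Rel, Ccl6, Igf1, Tgfb1, Tlr3, Myd88, Tmem119, Cx3cr1, B2m, Isg15 and Klf2 were singled out after their values were seen. So were Cebpd, Cdkn1a, Dusp1, Ccl5, Ccl7, Nfkbid, Bcl3, Il6, Pim3, Bcl6, Tlr9, Ticam1, Zbtb16, Cst7, Spp1 and Fabp5. The same holds for Bop1, Polr1b, Atf3, Dusp2, Hsph1, Idi1, Mcm2, Mcm4, Mcm5, Mcm6 and Cdk1. Alternatives changed the scaling, the CPM minimum, the pseudocount and the cells. Leaving out cells over 10000 UMIs, or with any UMI of the 12 genes, was chosen after seeing the data.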

Additional observations from a re-analysis of the deposited data

Results flagged for a closer look

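Abcg1, an exporter of cholesterol to lipoproteins, differed in opposite directions between clusters. Its log2 ratio of WT IL-33 over vehicle was -1.02 in cluster 0 (52.4 CPM against 107 CPM) and -1.39 in cluster 2 (45.8 CPM against 122 CPM), but 0.51 in cluster 3 (205 CPM against 144 CPM). WT IL-33 had 27, 20 and 56 Abcg1 UMIs in these clusters. Each cluster is 1 library per group, and the difference between clusters was not tested.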

How the results depend on the processing

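No paired analysis was possible because each group is 1 library. Over clusters 0, 2 and 3 the count of genes at least 2-fold higher was 124 under TMM scaling, and 585, 102 and 949 with a minimum of 10 CPM, of 100 CPM and with none. The count of lower genes was 68 under TMM scaling, 54 when totals left out mitochondrial and ribosomal genes, 80 in male-called cells, and 181, 16 and 624 with those minimums. In cluster 0 the higher genes numbered 337 in male-called cells and 684, 91 and 1296 with the minimums. The lower ones numbered 86 under TMM scaling, 78 with the reduced totals, 116 in male-called cells, 77 in G1-called cells and 345, 17 and 1145 with the minimums. In cluster 2 the higher genes numbered 112 under TMM scaling, 479 in male-called cells and 677, 72 and 1499 with the minimums. The lower ones numbered 80 under TMM scaling, 75 with the reduced totals, 241 in male-called cells, 112 in cells thinned to 2000 UMIs and 366, 20 and 1375 with the minimums. In cluster 3 the higher genes numbered 350 under TMM scaling and 1372, 270 and 1908 with the minimums. The lower ones numbered 431 under TMM scaling, 396 with the reduced totals, 415 in male-called cells, 435 in cells with no UMI of the 12 genes, and 988, 125 and 2619 with the minimums. The causes were not tested, except that a minimum sets how many genes are compared.

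With a pseudocount of 10 CPM the median log2 ratio was 1.60 for NF-kB targets and 2.88 for chemokines. The chemokine median was 1.92 in cells with no UMI of the 12 genes and 1.91 over members of any level. That of glucocorticoid-responsive genes was 1.40 over members at 50 CPM or more. The homeostatic median was -0.29 under TMM scaling and -0.19 with the reduced totals, and it turned to 0.024 in cells with no UMI of the 12 genes. The sign turned too for the receptor pathway (-0.0070 in clusters 0 and 2, -0.048 in cells with no UMI of the 12 genes and -0.14 over members at 50 CPM or more) and the TGF-beta pathway (-0.029 under TMM scaling). It turned for disease-associated genes under TMM scaling (-0.11), in male-called cells (-0.11), thinned cells (-0.069), clusters 0 and 2 (-0.14) and cells with no UMI of the 12 genes (-0.13). It turned for MHC class II with the reduced totals (-0.11), in thinned cells (-0.46) and in cells with no UMI of the 12 genes (-0.060), and for DNA replication in G1-called cells (0.0069). Over members at 50 CPM or more it turned for DNA replication (0.93), cholesterol (-0.50) and sex-linked genes (2.76). Among single genes it turned for Tsix (-0.34) and Ddx3y (0.11) in male-called cells, Slc1a2 (0.21), Sparcl1 (0.36) and Cd63 (-0.19) in clusters 0 and 2, and Cd63 (-0.28) and H2-Q7 (-0.11) in cells with no UMI of the 12 genes. Over all alternatives, list medians stayed within their counting interval 279 times, moved past it 26 times and turned sign 17 times, and named genes did so 858, 179 and 7 times. Depth limits cluster 3 most, where WT IL-33 had 67 cells and 1 UMI is worth 3.67 CPM, and with 1 library per group nothing here measures the spread between animals.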
